A study of Caenorhabditis elegans with 11 samples.

Results

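A pair of broad stretches of chromosome IV of the nematode Caenorhabditis elegans holds the piRNA clusters, and RNA polymerase II (Pol II) occupancy within them is described here. The stretches were chosen by position in the deposited table of 1 kb bins: domain 1 runs from IV 4500001 to 7000000 (2500 bins) and domain 2 from IV 13500001 to 17200000 (3700 bins). Together they hold 6200 of the 100257 bins of the genome and 6200 of the 17494 bins of chromosome IV. The other 11294 bins of chromosome IV, with 4500 to the left of domain 1, 6500 between the domains and 294 to the right of domain 2, served as the comparison. The choice used no Pol II value.

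The data are chromatin immunoprecipitation and sequencing (ChIP-seq) with an antibody to Pol II, from young adult hermaphrodites fed the E. coli strain OP50. There were 8 genotypes with 1 library each: the wild type N2, single mutants of hrde-1 and of set-32, the double mutant met-2 set-25, and their combinations. The combinations were the double mutant set-32 hrde-1, a triple mutant of met-2 and set-25 with set-32 (the set-32 triple mutant), a triple mutant of met-2 and set-25 with hrde-1 (the hrde-1 triple mutant), and a quadruple mutant that lacks all of them. The alleles were tm1200 for hrde-1, red11 for set-32, n4256 for met-2 and n5021 for set-25 in every strain. The genotypes are all combinations of 3 factors, so each factor was lost in 4 libraries and intact in 4. The title of the series concerns the part of SET-32 in nuclear RNA interference.

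In this animal the piRNAs, also called 21U-RNAs, are germline small RNAs bound by the Argonaute PRG-1. Most are transcribed by Pol II as separate short units, each with its own small promoter, and these units lie among and inside ordinary genes of the cluster domains. PRG-1 marks foreign or unwanted transcripts, on which RNA-dependent RNA polymerases then make 22G-RNAs. The Argonaute HRDE-1 carries such 22G-RNAs into germline nuclei, where it represses transcription of their targets, while MET-2 and SET-25 methylate histone H3 at lysine 9 and SET-32 belongs to the same SET domain class. In the RefSeq annotation of assembly WBcel235, 14714 of 15363 piRNA genes (95.78%) lie on chromosome IV, and no other chromosome has more than 202. That annotation was used for this count alone: the build of the deposited positions is unknown here, so no piRNA or other gene is assigned to a bin, and Pol II on piRNA units cannot be separated from Pol II on the genes around them.

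Values are RPKM, which in bins of equal length is a share of the reads of a library, so a gain in one place lowers the share of others. The libraries held an estimated 2.99 to 6.60 M reads. In the set-32 triple mutant and the quadruple mutant the reads were spread more evenly over the genome than in the others: the 90th percentile of all bins was 3.72 and 4.31 times the 10th, against 7.63 to 24.96 times in the other 6 libraries. They are called the evenly covered libraries below. Both carry set-32 and met-2 set-25 loss together and no other library does, so these 2 properties cannot be told apart. No untreated input library was used here, so differences between bins in how well reads can be placed were not tested.

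Median Pol II was lower in both domains than in the rest of chromosome IV in every library. Median Pol II per 1 kb bin of domain 1 was 3.99 RPKM in N2, 3.5 in the hrde-1 mutant, 2.91 in the set-32 mutant, 5.66 in met-2 set-25, 6.93 in the set-32 triple mutant, 3.47 in set-32 hrde-1, 3.79 in the hrde-1 triple mutant and 6.52 in the quadruple mutant. In domain 2 the medians were, in the same order, 2.97, 2.80, 2.31, 4.05, 5.94, 2.74, 2.73 and 5.63 RPKM. Domain 2 was below domain 1, and domain 1 below the rest of chromosome IV (medians of 4.72 to 7.83 RPKM), in 8 of 8 libraries. The 294 bins to the right of domain 2, which count in the rest, were low as well. Their medians, 2.64 to 6.465 RPKM, were below those of domain 1 in 8 of 8 libraries (3.51 against 3.99 RPKM in N2). The evenly covered libraries and met-2 set-25 had the highest medians in both domains. The median bin of the whole genome was 4.59 RPKM in N2, 3.62 in the set-32 mutant and 7.10 in the set-32 triple mutant. Domain 1 thus lay under the median of the genome too, but nearer to it than to that of the rest of chromosome IV.

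**Figure D1:**
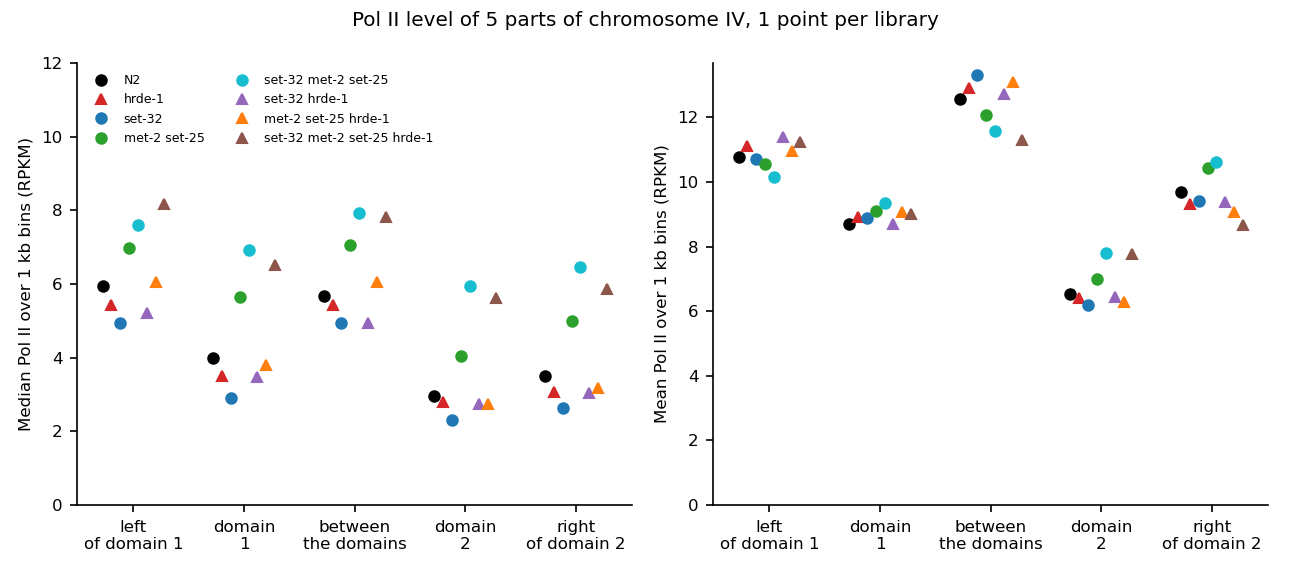
Median (left) and mean (right) Pol II in RPKM over the 1 kb bins of 5 parts of chromosome IV, 1 point per library, triangles for libraries without functional hrde-1. Domain 2 has the lowest mean of the 5 parts in every library.

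As a position within the rest of the chromosome, the domain 1 median fell at the 35.4th to 39.8th percentile of the other bins and the domain 2 median at the 20.7th to 27.7th. On the log2(RPKM + 1) scale the median of domain 1 lay 0.14 to 0.55 under that of the rest of the chromosome, and that of domain 2 lay 0.34 to 0.89 under it. The gaps were narrowest in the evenly covered libraries, at -0.14 and -0.23 for domain 1 and -0.34 and -0.41 for domain 2; the part of the even coverage in this was not tested. Mean Pol II, which the strongly bound bins set, was 8.97 ± 0.216 RPKM in domain 1, 6.81 ± 0.658 in domain 2 and 11.7 ± 0.472 in the rest (SD, n = 8 libraries of different genotypes). Domain 1 held 14.3% of the bins of chromosome IV and 11.9 to 13.3% of its Pol II signal, and domain 2 held 21.2% of the bins and 12.5 to 16.4% of the signal.

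The low medians came with fewer strongly bound bins and with long quiet runs. Averaged over the 8 libraries, 22.8% of the bins of domain 1 and 15.5% of those of domain 2 reached 10 RPKM, against 37.0% in the rest of the chromosome. Runs of 2 or more such bins numbered 26.0 per Mb in domain 1, 19.2 in domain 2 and 38.0 elsewhere, and their median length was 6, 4 and 6 kb. Such bins standing alone were not counted. The domains thus held fewer of these runs per Mb, of similar length in domain 1 and shorter in domain 2.

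Runs of at least 20 kb with every bin under 5 RPKM covered 21.2% of domain 1, 40.5% of domain 2 and 12.8% of the rest of the chromosome. The longest in domain 1 spanned 69 kb, from IV 4927001 to 4996000, with a mean of 2.93 RPKM. In domain 2 a pair of 70 kb runs, IV 16096001 to 16166000 and IV 16174001 to 16244000, was separated by only 8 kb, and their means were 2.80 and 2.94 RPKM. The longest run of the chromosome, 93 kb, lay outside the domains. Runs of at least 20 kb also covered 30.6% of the 294 bins to the right of domain 2, so long quiet runs were not confined to the domains.

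In the 100 kb windows, domain 1 ranged from 3.21 RPKM at IV 4900001 to 5000000 to 17.6 RPKM at IV 4700001 to 4800000, with a median of 7.59. Domain 2 ranged from 3.21 RPKM at IV 16200001 to 16300000 to 14.5 RPKM at IV 15000001 to 15100000, with a median of 5.95. In domain 2, 13 of 37 windows were under 5 RPKM, against 3 of 113 in the rest of the chromosome, where the median window was at 10.8. The level therefore varied several-fold within each domain.

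**Figure D2:**
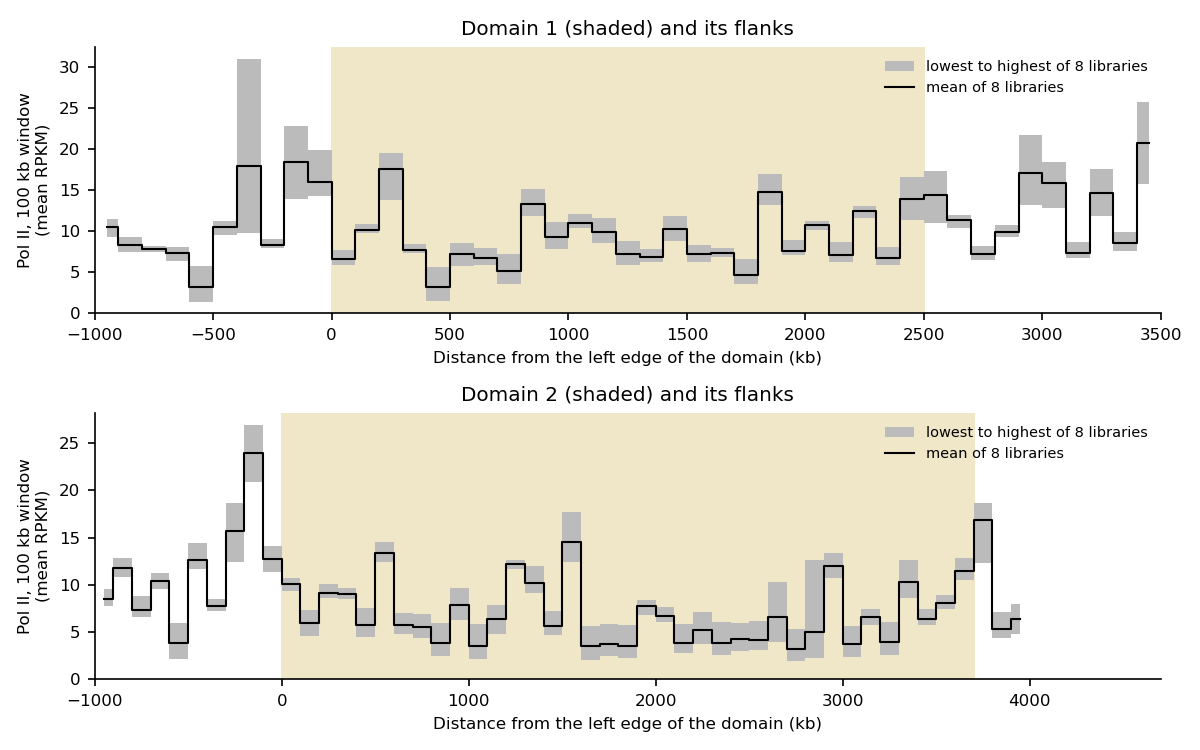
Mean Pol II (RPKM) in 100 kb windows by distance in kb from the left edge of domain 1 (top) and domain 2 (bottom), with the domain shaded, the black line the mean of 8 libraries and the grey band their lowest to highest value. In domain 2 most windows lie under 10 RPKM, with the highest at 14.5 RPKM, while the windows just left of it reach over 20.

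Single bins inside the domains still carried strong Pol II. The highest bin of domain 1 was IV 4748001 to 4749000, at 164.9 RPKM on average and 97.6 to 202.1 across libraries. In domain 2 it was IV 13882001 to 13883000, at 113.8 RPKM on average and 57.7 to 174.4 across libraries. In both bins the 2 lowest values belonged to the evenly covered libraries. At the other end, IV 5910001 to 5911000 in domain 1 averaged 1.49 RPKM and IV 15090001 to 15091000 in domain 2 averaged 1.42 RPKM. A total of 47 bins of domain 1 (1.88%) and 35 of domain 2 (0.946%) averaged at least 50 RPKM, against 231 in the rest of the chromosome (2.05%).

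The edges set by the rule were not marked by a step in the nearest bins. The 5 bins outside the left edge of domain 1 averaged 3.95 RPKM and the 5 inside 4.57, and at its right edge the values were 3.02 inside and 4.26 outside. At the left edge of domain 2 they were 16.9 outside and 16.6 inside, and at its right edge 5.04 inside and 5.35 outside. Over 100 kb the mean values outside were above those inside at all 4 edges. At the left edges they were 15.97 against 6.61 RPKM for domain 1 and 12.7 against 10.1 for domain 2, and at the right edges 14.4 against 13.8 for domain 1 and 16.8 against 11.5 for domain 2. At the right edge of domain 1 the order was reversed in hrde-1 (14.96 outside, 15.94 inside), set-32 hrde-1 (14.68, 14.98) and the quadruple mutant (10.94, 11.28). Outside the right edges the highest single bins averaged 185.1 RPKM for domain 1 and 337.8 for domain 2, and their part in these means was not tested.

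The same distances from the chromosome ends were read on the other autosomes as a reference for position along a chromosome. At 4500001 to 7000000, the median bin averaged 4.52 RPKM on IV, 4.92 on V, 5.56 on II, 10.5 on III and 10.6 on I, and chromosome IV was lowest or tied in 8 of 8 libraries and lowest alone in 6. At the distance of domain 2 from the right end, the median bin averaged 3.51 RPKM on IV, 3.88 on V, 6.43 on I, 7.06 on II and 9.43 on III, and chromosome IV was lowest or tied in 8 of 8 libraries and lowest alone in 7. Chromosome V was close behind in both, so the level of the domains was near that of the matching stretches of V and apart from those of I and III. Over the whole of chromosome V the median bin averaged 3.98 RPKM, below domain 1 and above domain 2.

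Libraries ranked the bins of the domains less alike than those of the rest of the chromosome. Spearman's rho between pairs of libraries was 0.72 to 0.85 across the 2500 bins of domain 1, 0.63 to 0.80 across the 3700 of domain 2 and 0.80 to 0.92 across the 11294 others. At the domain 2 median a bin held 7.0 to 36.0 reads, which gives 16.7 to 37.8% counting error, and at the domain 1 median 8.82 to 42.1 reads, which gives 15.4 to 33.7%. The bins of a library share its depth and neighbour each other, so these correlations are descriptive.

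Loss of hrde-1 raised Pol II at a few short regions of the domains, while their general level differed by less than the spread of libraries. The question was tested in every bin of the genome with limma on log2(RPKM + 1), with the 3 factors as additive terms and 4 residual degrees of freedom, and p-values were Benjamini-Hochberg adjusted over the 100027 bins that averaged 2 RPKM or more. In the domains 6141 bins passed that filter, 2492 of 2500 in domain 1 and 3649 of 3700 in domain 2. Of these, 40 rose and 4 fell with hrde-1 loss at an adjusted p under 0.05, 0.651% and 0.0651% of the bins tested there. The background over all bins of the genome was 0.852% higher and 0.08% lower, so the share of changed bins in the domains was near the genome's. Domain 1 held 12 of the higher bins (0.482% of its bins tested) and domain 2 held 28 (0.767%). Outside the domains, 109 of 11280 bins of chromosome IV rose (0.966%), 78 to the left of domain 1 (1.74%) and 31 between the domains (0.477%).

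Each genotype had 1 library, so the p-values set an effect against the scatter of libraries about the additive fit, which limma moderates over all bins. Variation between repeats of a genotype was not measured apart from that scatter. The libraries came from whole animals, so fewer cells of a type and less Pol II per cell cannot be told apart.

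The 40 higher bins formed 16 regions of 1 to 8 kb, 6 in domain 1 and 10 in domain 2. In 15 of the 16 every hrde-1 mutant library was above every other library. In each of the 16 regions the mutant was above its partner in all 4 pairs of genotypes that differ only in hrde-1, with a median log2 difference of 1.57 for hrde-1 over N2, 1.52 for set-32 hrde-1 over set-32, 1.59 for the hrde-1 triple mutant over met-2 set-25 and 1.03 for the quadruple mutant over the set-32 triple mutant. The regions were selected on these libraries, so the pairs describe their size, and neither they nor the lack of overlap adds a test. The last pair, between the evenly covered libraries, gave the smallest median.

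The most changed region of either domain was IV 14415001 to 14417000 in domain 2. Its Pol II was 2.57 RPKM in N2, 2.31 in the set-32 mutant, 2.995 in met-2 set-25 and 7.02 in the set-32 triple mutant, and it was 55.4 in the hrde-1 mutant, 32.3 in set-32 hrde-1, 44.9 in the hrde-1 triple mutant and 26.3 in the quadruple mutant. All 4 libraries with hrde-1 loss were several-fold above all 4 others, and in N2, set-32 and met-2 set-25 the region was as quiet as its domain. The log2 change was 3.03 ± 0.26 (SE), and the smallest limma adjusted p among its bins was 9.63e-10. The rise was narrow: the 5 bins before it averaged 5.32 RPKM and the 5 after it 5.14 over the 8 libraries.

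Further along domain 2, IV 16315001 to 16319000 was at 3.31 RPKM in N2, 3.71 in the set-32 mutant, 6.29 in met-2 set-25 and 9.10 in the set-32 triple mutant. With hrde-1 loss it was at 19.95 RPKM in the hrde-1 mutant, 47.4 in set-32 hrde-1, 14.7 in the hrde-1 triple mutant and 99.1 in the quadruple mutant. The groups did not overlap, and among the mutants both libraries that also lacked set-32 were the highest. The log2 change with hrde-1 loss was 2.37 ± 0.28 (SE; smallest limma adjusted p 1.09e-08).

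**Figure D3:**
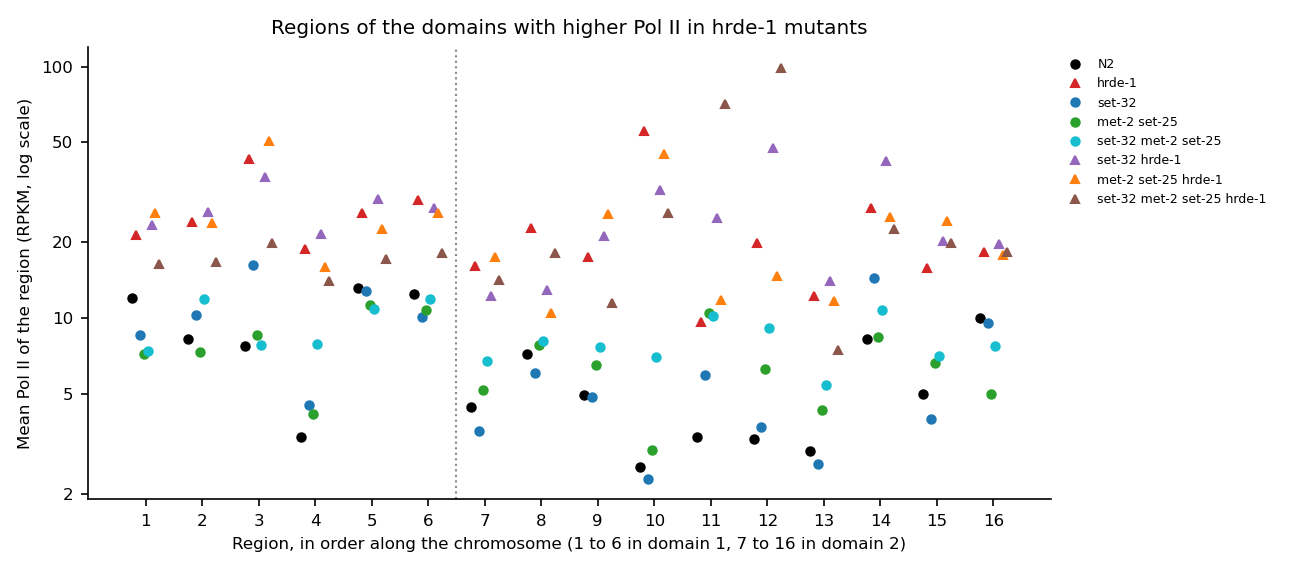
Mean Pol II (RPKM, log scale) of the 16 regions of the domains higher in hrde-1 mutants, in order along the chromosome, 1 point per library, triangles for hrde-1 mutants and circles for the others. Triangles lie above all circles in 15 of the 16 regions, and the exception is region 11. The regions were selected on these libraries.

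The longest higher region was IV 13631001 to 13639000, 8 kb in domain 2. It rose from 4.98 ± 1.36 RPKM to 15.0 ± 2.31 in the mutants (SD, n = 4 libraries each), with values of 3.55 to 6.76 in the 4 libraries with hrde-1 and 12.3 to 17.6 in the 4 without (log2 change 1.52 ± 0.23 SE, smallest limma adjusted p 1.20e-06). Further right, the 4 kb at IV 16894001 to 16898000 rose from 5.68 ± 1.45 to 20.1 ± 3.45 RPKM (log2 change 1.76, limma adjusted p 3.64e-08). Close to it, the 5 kb at IV 16832001 to 16837000 rose from 10.5 ± 2.88 to 29.4 ± 8.83 RPKM (log2 change 1.38, limma adjusted p 2.25e-07). The groups of 4 libraries did not overlap in any of these 3 regions.

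In domain 1 the largest change was at IV 6011001 to 6013000, which rose from 10.1 ± 4.17 to 37.5 ± 13.1 RPKM (log2 change 1.69, limma adjusted p 2.87e-05), and there set-32 alone, at 16.3 RPKM, stood above the 7.72 to 8.57 RPKM of the other libraries with hrde-1. IV 6086001 to 6088000 rose from 4.999 ± 2.01 to 17.6 ± 3.30 RPKM (log2 change 1.68, limma adjusted p 2.23e-05). The other 4 regions of domain 1 had log2 changes of 0.90 to 1.33, among them IV 4723001 to 4726000, IV 6005001 to 6006000 and IV 6356001 to 6358000. The remaining higher regions of domain 2 were IV 13816001, 14256001, 16312001, 16829001 and 17144001, with log2 changes of 0.99 to 1.51.

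Of the 15 higher regions with the largest changes, 13 stayed past the threshold under all 16 alternative settings. The bin at IV 13816001 did so under 10 and the bin at IV 16312001 under 13; the latter lost its call without both evenly covered libraries (limma adjusted p 0.0855) and is the region where the groups overlapped, hrde-1 reading 9.62 RPKM and met-2 set-25 10.48.

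In the other direction, 3 regions of domain 2, 4 bins in all, fell with hrde-1 loss. IV 16171001 to 16173000 lies between the pair of 70 kb quiet runs. It was at 69.2 RPKM in N2, 61.2 in met-2 set-25, 33.9 in the set-32 triple mutant and 23.0 in set-32, and at 9.93 in hrde-1, 17.9 in the hrde-1 triple mutant, 20.7 in set-32 hrde-1 and 20.8 in the quadruple mutant. The groups did not overlap, but set-32, with intact hrde-1, lay just above the mutants. It fell by 1.30 on the log2 scale (smallest limma adjusted p 0.00307), and the other lower bins, IV 15900001 and IV 14051001, fell by 1.19 and 1.00 (limma adjusted p 0.00854 and 0.00981). At IV 15900001 the groups overlapped, with the hrde-1 triple mutant at 31.8 RPKM above the set-32 triple mutant at 31.04 and the set-32 mutant at 24.7. None of the 3 kept its call under every alternative: with libraries centred on their median, no bin was called lower, and leaving out set-32 gave 17 lower bins. With the prefix of the library names as a term, IV 15900001 and IV 16171001 lost their calls and IV 14051001 kept its call. N2 and met-2 set-25, the highest libraries at the regions that lost their calls, share a prefix with the hrde-1 triple mutant.

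No 100 kb window of the domains passed the test for hrde-1 loss, 0 of 62 in either direction, against 1.69% of windows called higher and 0.0% lower over the genome with limma; 2 of the 62 had an unadjusted p under 0.05. The closest was IV 16800001 to 16900000, which holds 3 of the higher regions above. It was at 9.27, 10.2, 8.55 and 9.34 RPKM in N2, set-32, met-2 set-25 and the set-32 triple mutant, and at 11.6, 12.6, 10.1 and 10.4 in the libraries with hrde-1 loss, in hrde-1, set-32 hrde-1, the hrde-1 triple mutant and the quadruple mutant. The log2 difference was 0.23 ± 0.051 (SE; limma adjusted p 0.0509), and it passed the threshold under several alternatives, among them quantile normalization (limma adjusted p 0.00768). The window IV 16100001 to 16200000, which contains the region that fell, was at 10.3 RPKM in N2, 9.80 in met-2 set-25, 8.29 in the set-32 triple mutant and 4.48 in set-32, and at 3.88 to 7.02 in the libraries with hrde-1 loss (log2 difference -0.61, limma adjusted p 0.285). It passed without the set-32 library (limma adjusted p 0.000176), without the quadruple mutant (0.0316) and without both evenly covered libraries (0.0132).

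The median of the domains relative to the rest of the chromosome differed little with hrde-1 loss. The gap to the rest, on the log2 scale, was -0.41 ± 0.131 in the mutants and -0.34 ± 0.177 in the others for domain 1, and -0.68 ± 0.197 and -0.63 ± 0.205 for domain 2 (SD, n = 4 libraries each). The differences of -0.07 and -0.04 were smaller than the SDs, and the groups overlapped in both domains.

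The authors' marks of the table give a second view of the regions that rose. Bins marked GRTS and GRH, names used in the field for regions of transcriptional silencing and of heterochromatin that depend on germline nuclear RNAi, numbered 11 each in the domains. That was 0.177% of the domains' bins for either mark, against 0.191% of all bins for GRTS and 0.214% for GRH, so the domains carried such marks about as often as the genome. All 11 GRTS bins, 10 of them in domain 2, rose with hrde-1 loss, with a median log2 change of 2.01, and 3 of the 11 GRH bins rose. The marks may rest on libraries of this kind and are not independent evidence of a direction. Of the 16 higher regions, 5 contained a GRTS bin, 3 others a GRH bin and 8 neither.

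For set-32 loss, no bin of the domains passed the test, 0 of 6141 with limma in either direction, with 249 at an unadjusted p under 0.05. The background over the genome was 0.0% higher and 0.001% lower. The bin with the smallest p, IV 16316001 to 16317000, lies in the region that rose with hrde-1 loss: it was at 52.5 RPKM in set-32 hrde-1 and 98.2 in the quadruple mutant, at 3.95 in set-32 and 9.08 in the set-32 triple mutant, and at 2.43 to 18.2 in the 4 libraries with set-32 (limma adjusted p 0.288). The high values were those of the libraries that lacked both set-32 and hrde-1. No 100 kb window passed, 0 of 62, although 1 had an unadjusted p under 0.05, and the background was 0.0% in both directions.

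In domain 2 the gap to the rest of the chromosome was -0.55 ± 0.213 with set-32 loss and -0.76 ± 0.0956 without it (SD, n = 4 each), a difference of 0.20. The groups overlapped, and without both evenly covered libraries the difference was 0.03.

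Whether hrde-1 loss acted differently with and without set-32 was tested with a product term in the limma model. In the domains 3 bins of 6141 gave a positive interaction, against a background of 0.133% of bins, and none a negative one, against 0.021%. A pair of them lies at IV 16313001 to 16316000, inside the 7 kb stretch from IV 16312001 to 16319000. Averaged over that stretch, Pol II was 3.57 RPKM in N2, 14.5 in the hrde-1 mutant, 4.71 in the set-32 mutant, 8.08 in met-2 set-25, 9.96 in the set-32 triple mutant, 34.1 in set-32 hrde-1, 12.5 in the hrde-1 triple mutant and 99.5 in the quadruple mutant. The quadruple mutant was the highest library, followed by set-32 hrde-1, and the other 6 lay between 3.57 and 14.5 RPKM. Both of these highest libraries share a name prefix with the hrde-1 and set-32 mutants, and the part of the prefix in the interaction was not tested.

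The interaction at the bins IV 16313001 and IV 16315001 was 2.07 and 2.30 on the log2 scale (limma adjusted p 0.0163 and 0.0116). Without the quadruple mutant it was 0.81 and 1.24 and without the hrde-1 triple mutant 1.46 and 1.38, and neither was called (limma adjusted p 1.00 for both bins in both fits). Without set-32 hrde-1 it was 3.32 and 3.36, and without N2 no bin of the domains was called. The third bin, IV 16172001, lies in the region that fell with hrde-1 loss, and there the fall was seen from N2 at 62.6 RPKM to hrde-1 at 10.3 but not from set-32 at 18.4 to set-32 hrde-1 at 17.3 (interaction 1.89, limma adjusted p 0.0116).

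**Figure D4:**
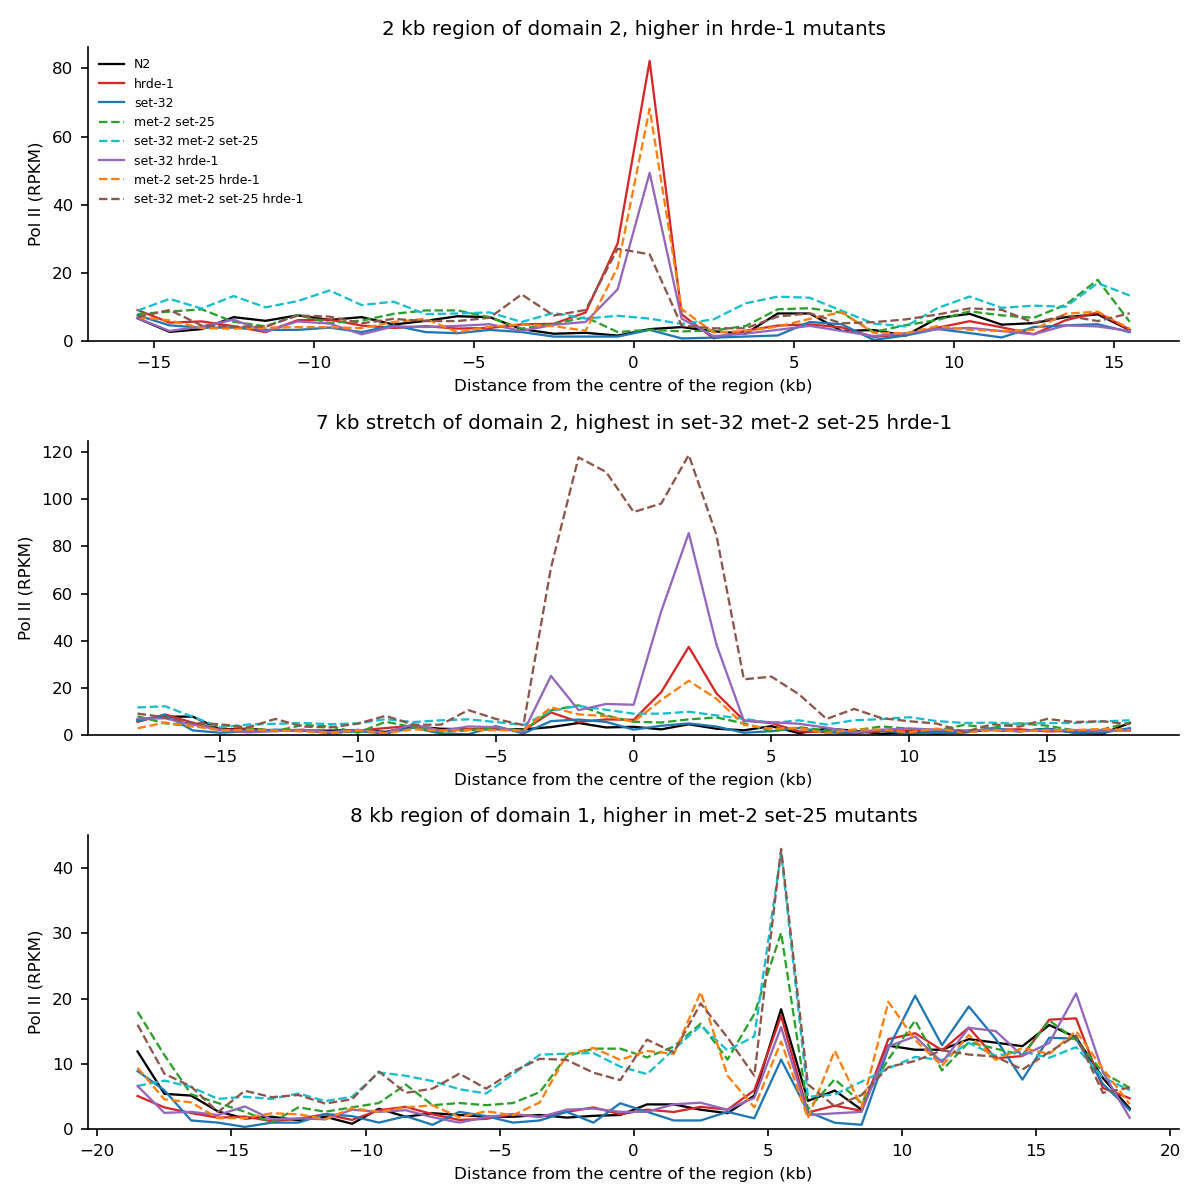
Pol II (RPKM) in 1 kb bins by distance in kb from the centre of 3 regions, 1 line per library, dashed where met-2 set-25 is lost. The top region reaches 82.2 RPKM in hrde-1, the middle stretch 118.8 RPKM in the quadruple mutant, and the bottom region is raised in all 4 dashed libraries.

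Loss of met-2 together with set-25 raised Pol II most clearly over 8 kb of domain 1, at IV 5682001 to 5690000. It was at 2.63 RPKM in N2, 2.76 in the hrde-1 mutant, 2.10 in the set-32 mutant and 3.002 in set-32 hrde-1, and at 11.5 in met-2 set-25, 11.6 in the set-32 triple mutant, 11.4 in the hrde-1 triple mutant and 12.03 in the quadruple mutant. The 4 mutant libraries lay close together and all several-fold above the rest, whatever their hrde-1 and set-32 genotype. The log2 change was 1.79 ± 0.25 (SE; smallest limma adjusted p 2.70e-06). It passed under all 16 alternatives, including the fit without both evenly covered libraries (log2 change 1.70, smallest limma adjusted p 0.0317), where 1 of its 8 bins passed, and the one with libraries centred on their median (1.29, limma adjusted p 6.48e-05). The 5 bins before the region were at 1.65 to 2.18 RPKM in the 4 libraries with met-2 set-25. They were at 4.42, 7.10, 2.73 and 7.05 RPKM in met-2 set-25, the set-32 triple mutant, the hrde-1 triple mutant and the quadruple mutant. The 5 bins after it were at 3.31 to 7.33 RPKM with met-2 set-25 and at 12.5, 14.8, 6.75 and 13.3 RPKM in the mutants, in the same order. Higher values thus ran past the region in the mutants other than the hrde-1 triple mutant.

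Over the domains 24 bins rose and 3 fell with met-2 set-25 loss, 0.391% and 0.0489% of 6141, against a background of 0.318% and 0.127% over the genome with limma. They formed 13 higher regions and 2 lower ones, and the groups of 4 did not overlap in any of the 15. The regions were selected on these libraries, so the lack of overlap adds no test. The calls depended on scaling and on single libraries. The median bin of the genome moved by 0.40 on the log2 scale with met-2 set-25 loss and the median bin of the domains by 0.51. Without both evenly covered libraries these medians were 0.092 and 0.13, and with quantile normalization -0.009 for both. With libraries centred on their medians the split was 29 higher and 204 lower, with quantile normalization 5 higher and 0 lower, and with genetic background, the 4 combinations of the other factors, as a block 173 higher and 55 lower.

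Without both evenly covered libraries 1 bin was called higher and 0 lower. Leaving out the hrde-1 triple mutant, the mutant library with the lowest median of the 4, gave 2194 higher and 303 lower bins, and leaving out N2 gave 261 and 74. Of the 13 higher regions, the one at IV 5682001 was past the threshold under every alternative. Of the 18 bins of the domains with the third mark, misanotated (0.290% of bins, against 0.505% of the genome), 3 rose with met-2 set-25 loss and none with hrde-1 loss.

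**Figure D5:**
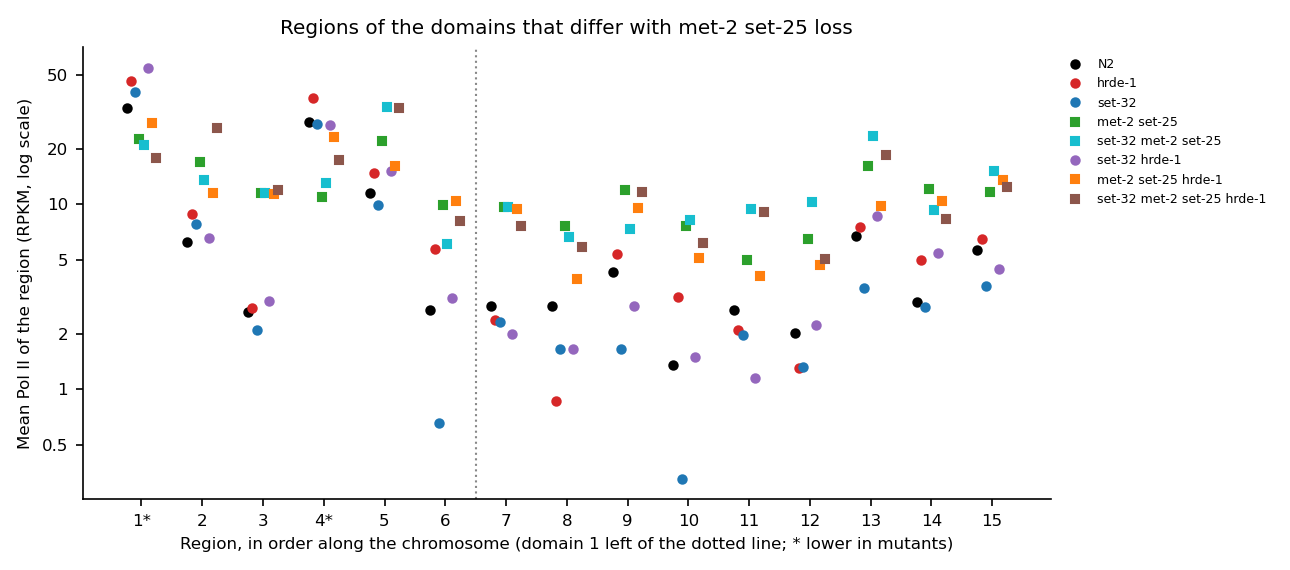
Mean Pol II (RPKM, log scale) of the 15 regions of the domains that differ with met-2 set-25 loss, in order along the chromosome, 1 point per library, squares for met-2 set-25 mutants and circles for the others. Squares and circles do not overlap in any region, and most of the higher regions start from under 5 RPKM. The regions were selected on these libraries.

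The next most stable region was IV 13646001 to 13648000 in domain 2, which rose from 2.37 ± 0.350 to 9.13 ± 0.985 RPKM (SD, n = 4 each; log2 change 1.57, limma adjusted p 0.00383) and passed under 13 of 16 alternatives. It lies 7 kb to the right of the 8 kb region that rose with hrde-1 loss. The other higher regions were mostly single bins at low levels, such as IV 15860001, from 1.58 ± 1.17 to 6.82 ± 1.41 RPKM (limma adjusted p 0.0237), where set-32 read 0.33 RPKM. The lower ones were both strongly bound: IV 4759001 to 4761000 fell from 43.7 ± 9.22 to 22.3 ± 4.09 RPKM and IV 6354001 to 6355000 from 29.8 ± 5.14 to 16.2 ± 5.42 RPKM (limma adjusted p 0.0347 and 0.0399), and each passed under 7 of 16 alternatives.

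No 100 kb window of the domains passed for met-2 set-25 loss, 0 of 62 with limma in either direction, against backgrounds of 1.1% higher and 0.897% lower. At an unadjusted p under 0.05 there were 23 of the 62, and 46 of the 62 had a log2 difference above 0. That count at an unadjusted p was 2 without both evenly covered libraries, 12 with quantile normalization and 0 with the name prefix as a term. Leaving out the hrde-1 triple mutant gave 33 higher and 8 lower windows and leaving out N2 gave 8 and 6. The gap between domain and rest of the chromosome was narrower by 0.17 in domain 1 and 0.16 in domain 2 with met-2 set-25 loss. In domain 1 it was -0.29 ± 0.166 in the mutants and -0.47 ± 0.0636 in the others (SD, n = 4 libraries each). In domain 2 it was -0.58 ± 0.251 and -0.73 ± 0.0483. The groups overlapped in both domains, and the hrde-1 triple mutant had the widest gap of domain 2, -0.89. Without both evenly covered libraries the difference in domain 2 was -0.04.

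A product of hrde-1 and met-2 set-25 loss gave no called bin in the domains, 0 of 6141 with limma, with 177 at an unadjusted p under 0.05 and backgrounds of 0.0% and 0.001%; leaving out the quadruple mutant gave 34 and leaving out N2 gave 13. The product of set-32 and met-2 set-25 loss was negative in 8 bins, against a background of 0.216%, and positive in none, against 0.036%. At 7 of the 8 both evenly covered libraries were below the other 6, and at IV 4880001 N2, at 11.5 RPKM, was lower still. At IV 5470001 to 5472000 Pol II was 59.3 to 117.4 RPKM in 6 libraries, and 25.01 and 18.1 RPKM in the set-32 triple mutant and the quadruple mutant (log2 interaction -2.52, smallest limma adjusted p 0.00766). Only these 2 libraries combine the losses, so this interaction and their even coverage cannot be told apart.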

How the data were processed

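Pol II ChIP-seq was analysed in 8 libraries, and the 3 H3K9me3 libraries of the series were not analysed here. The authors deposited RPKM values in 1 kb bins, with yes-or-no marks (GRTS, GRH and misanotated) as other columns of the deposited table. Per the submitters' processing notes the aligner was Bowtie 0.12.7. Neither the build, nor any input subtraction or filter, nor how multiply mapping reads were placed, is given in the sources used here. RPKM of repeated sequence depends on that treatment. Columns were matched to samples by name, and 35 other library columns were not used. Read positions are those of the deposited table, counted from 1.

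Depth was estimated from the step between low values, 0.152 to 0.334 RPKM per read; 83.0 to 84.6% of the low values lay within 0.1 read of a whole number, so the values could not be turned into whole reads for a count model. Intervals from reads cover counting error only.

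Values were tested as log2(RPKM + 1) with limma 3.58.1 (R 4.3.3; intensity trend, two-sided, Benjamini-Hochberg over all features of the genome with a mean of at least 2 RPKM), with hrde-1, set-32 and met-2 set-25 as additive terms, or with 1 product term added (3 residual degrees of freedom). Fold changes on this scale understate changes of low bins. The additive fit was run on simulated data with planted hrde-1 changes and independent noise of the same size in every library. That run does not bear on the met-2 set-25 or interaction calls. Features were 100027 bins and 1003 windows of 100 kb. Called bins of 1 direction with at most 1 bin between them formed a region; its change and SE are means over its called bins, and regions were not tested as units. For each factor and direction, up to 15 regions with the largest change could be named, with the extreme bins and windows of each domain, the windows with the largest change and the bins beside its edges. Domain medians are descriptions without a test. Library names carry 3 prefixes of unstated meaning, used as an alternative term in the additive fits but not in the interaction fits. N2, met-2 set-25 and the hrde-1 triple mutant share a prefix. The hrde-1 mutant, set-32, set-32 hrde-1 and the quadruple mutant share another, and the set-32 triple mutant has its own. Outside the first prefix only the hrde-1 mutant has intact set-32, so set-32 loss and prefix largely coincide. An alternative with genetic background as a block (3 residual degrees of freedom) was added after seeing the data. The domains, the evenly covered libraries and the lists were chosen with earlier results of these data known. Tables were made in Python 3.11.15 with pandas 2.3.3 and numpy 2.4.6, and figures with matplotlib 3.10.9.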

Additional observations from a re-analysis of the deposited data

Results flagged for a closer look

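In 11 of the 6141 tested bins of the domains an interaction term passed (limma, Benjamini-Hochberg adjusted over all bins). Such a term asks whether the effect of a factor differed with the state of another. Each of the 11 lost its call in some of the fits with a library left out. For hrde-1 by set-32, 0.133% of all bins of the genome were positive and 0.021% negative. For set-32 by met-2 set-25 these backgrounds were 0.036% and 0.216%. Between hrde-1 and set-32 the log2 interaction was 1.89 at IV 16172001, 2.07 at IV 16313001 and 2.30 at IV 16315001. At the last pair it was 0.81 and 1.24 without the quadruple mutant and 1.46 and 1.38 without the hrde-1 triple mutant, where neither bin was called. At IV 16172001 it was 1.58 to 2.19 with each library left out in turn, and it stayed past the threshold only without met-2 set-25 or without the set-32 triple mutant.

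Between set-32 and met-2 set-25 the log2 interaction was -1.79 at IV 4880001, -2.10 at IV 5391001, -2.75 at IV 5470001, -2.30 at IV 5471001, -2.04 at IV 6422001, -2.23 at IV 13511001, -2.04 at IV 13777001 and -1.78 at IV 17087001. At 7 of these 8 bins both evenly covered libraries were below the other 6. Only the evenly covered libraries combine the losses, so the interaction and their even coverage cannot be told apart. None of the 8 was called without N2, hrde-1, set-32, the hrde-1 triple mutant or the quadruple mutant.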

How the results depend on the processing

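The replicate numbers give no pairing, because every genotype has only replicate 1. Libraries that differ in 1 factor alone can be paired by genetic background, the 4 combinations of the other factors. Added after seeing the data, a fit took this background as a block. It gave 41 higher and 3 lower bins for hrde-1 loss, 0 and 0 for set-32 loss and 173 and 55 for met-2 set-25 loss, and in windows 1 and 0, 0 and 0, and 1 and 2. With hrde-1 loss, the count of higher bins was 34 to 47 under every alternative, and 36 to 47 with each library left out. Lower bins numbered 0 with a mean of at least 5 RPKM, 0 with centred libraries, 2 with quantile normalization and 1 to 17 with a library left out (1 without hrde-1, 17 without set-32, 10 without set-32 hrde-1, 13 without the quadruple mutant). For set-32 loss, leaving out a library gave 0 to 4 higher and 0 to 2 lower bins.

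With met-2 set-25 loss, higher bins numbered 43 at a pseudocount of 2 RPKM, 9 with a mean of at least 5 RPKM, 5 with quantile normalization, 15 with the name prefix as a term, 1 without both evenly covered libraries and 11 to 2194 with a library left out. Lower bins numbered 1 and 5 at pseudocounts of 0.5 and 2 RPKM, 204 with centred libraries, 0 with a mean of at least 5 RPKM, quantile normalization, the prefix term or both evenly covered libraries left out, and 0 to 303 with a library left out.

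In 100 kb windows, hrde-1 loss gave 1 higher window at a pseudocount of 0.5 RPKM, with a mean of at least 5 RPKM, with quantile normalization and without both evenly covered libraries, which also gave 1 lower window. Leaving out a library gave 0 to 2 higher and 0 to 2 lower windows for hrde-1 loss, and 0 to 33 higher and 0 to 8 lower for met-2 set-25 loss. Among domain medians, the met-2 set-25 difference was 0.038 in domain 1 and -0.065 in domain 2 with quantile normalization, and without both evenly covered libraries it was -0.041 in domain 2, where that of set-32 was 0.027. Fits of the interactions without each library were chosen after seeing the data and gave 0 to 22 bins for hrde-1 by set-32, 0 to 34 for hrde-1 by met-2 set-25 and 0 to 489 for set-32 by met-2 set-25. The cause of these changes was not tested. The set-32 by met-2 set-25 interaction could not be fitted without both evenly covered libraries. A bin at the domain 2 median held 7.0 to 36.0 reads, with 16.7 to 37.8% counting error.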
